A study of Mus musculus with 48 samples.

Results

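The 10 genes described here are Vegfa and 9 genes of the pathway by which cells sense oxygen. They are the hypoxia-inducible factor subunits Hif1a, Epas1 and Hif3a, the prolyl hydroxylases Egln1 and Egln3, the ubiquitin ligase component Vhl, and the response genes Adm, Ankrd37 and Ndrg1. They were chosen by name, as the rows of the count table whose Ensembl identifiers map to these symbols, and all 10 were found among the 55487 genes of the table. The study measured mRNA by sequencing in slices of mouse kidney that were kept in culture and exposed there to nephrotoxic drugs or to changes of oxygen. The slices came from male mice of 2 inbred strains, C57BL/6J and DBA/2J, and the 48 libraries formed 16 groups of 3. In each strain these were a control, tunicamycin (an inhibitor of N-linked glycosylation) and cyclosporin A (a calcineurin inhibitor) at 6 h and at 24 h, and at 24 h also normoxia (ischemia in the sample titles) and normoxia-hyperoxia (reperfusion in the titles). Drug doses, mouse age, how much oxygen the controls received and when oxygen was switched are not given in the sources used here. By their titles the controls belong to the nephrotoxicity arm of the study and the oxygen conditions to separate arms. Arm and oxygen condition therefore cannot be told apart, in comparisons with the controls or of the oxygen conditions with each other. The labels number the libraries of a group as biological replicates without saying whether they came from separate mice, so the p-values measure the spread between these libraries, which may in part be technical.

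While oxygen is plentiful, the enzymes encoded by the Egln genes hydroxylate the alpha subunits of the hypoxia-inducible factors (HIF), and the VHL protein then marks those subunits for degradation. When oxygen is scarce the alpha subunits persist, pair with ARNT and switch on target genes, among them Vegfa, Adm, Ankrd37 and the hydroxylase genes Egln1 and Egln3, which closes a feedback loop. Much of this control acts on the HIF proteins, which were not measured here. In the kidney, Vegfa is made by podocytes and tubule cells and maintains the capillaries.

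The core of the sequence that HIF binds is ACGTG or GCGTG. RefSeq promoters (GRCm38.p6) were available for 8 of the 10 genes, all but Epas1 and Ndrg1, and the 250 bases before each annotated start were searched for both cores on either strand. At least 1 core stood before 7 of the 8 genes, counting a gene if any of its annotated starts had a match, the exception being Vhl. Over all 32851 RefSeq promoters, each start being counted singly, 38.6% held 1 or both. Ankrd37 held 4 matches, Hif1a 3, Adm, Egln1 and Hif3a 2 each and Egln3 1, and the 3 of Hif1a lie at 2 places, since the palindrome CACGTG (6.02% of all promoters) is read as ACGTG on both strands and gives 2 of them. The main start of Vegfa had no match. Its match came from a second annotated start, with 2 cores, whose 250 bases lie inside the gene and are not printed below. A match is a run of letters and not a measured binding site. The promoters below belong to the 3 genes that differed most between normoxia and the 24 h controls and to Vegfa; the cores are in capitals, CACGC and CACGT being the same cores on the other strand. They lie at chr7:110627407-110627656 (plus strand) for Adm, chr8:45999851-46000100 (minus strand) for Ankrd37, chr12:54203875-54204124 (minus strand) for Egln3 and chr17:46032378-46032627 (minus strand) for the main start of Vegfa, each written 5′ to 3′ on the strand of the gene.
Adm: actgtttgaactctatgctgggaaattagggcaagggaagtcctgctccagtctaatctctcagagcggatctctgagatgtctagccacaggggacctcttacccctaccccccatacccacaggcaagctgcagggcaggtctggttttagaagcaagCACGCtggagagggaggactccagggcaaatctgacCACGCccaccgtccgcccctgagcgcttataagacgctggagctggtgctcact
Ankrd37: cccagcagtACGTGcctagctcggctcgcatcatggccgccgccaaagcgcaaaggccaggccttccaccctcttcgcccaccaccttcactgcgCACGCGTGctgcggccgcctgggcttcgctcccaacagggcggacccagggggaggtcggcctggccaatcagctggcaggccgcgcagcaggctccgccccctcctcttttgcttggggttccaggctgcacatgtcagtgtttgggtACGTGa
Egln3: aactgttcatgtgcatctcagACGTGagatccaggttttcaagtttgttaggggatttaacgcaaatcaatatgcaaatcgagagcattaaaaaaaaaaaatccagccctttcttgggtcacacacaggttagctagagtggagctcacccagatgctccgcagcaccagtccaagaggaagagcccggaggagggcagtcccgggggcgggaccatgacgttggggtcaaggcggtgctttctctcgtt
Vegfa: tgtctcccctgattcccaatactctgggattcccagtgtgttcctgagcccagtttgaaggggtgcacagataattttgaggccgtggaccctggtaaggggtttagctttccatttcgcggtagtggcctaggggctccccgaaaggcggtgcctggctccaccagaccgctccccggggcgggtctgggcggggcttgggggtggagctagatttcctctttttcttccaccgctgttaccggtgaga

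The libraries held between 5619309 and 25137581 counts, with a median of 19607361; the shallowest was replicate 2 of DBA/2J normoxia-hyperoxia, and the next lowest had 12384733. Marker genes of 7 kidney cell classes were all detected, none being at 0 in a whole group. Their levels moved with the conditions: the summed CPM (the count scaled to a fixed library total) of 5 proximal tubule markers ranged from 339 to 517 in the 24 h controls of C57BL/6J, from 4160 to 6281 under normoxia and from 127 to 240.0 under normoxia-hyperoxia. In DBA/2J the same sums were 748 to 1654, 10085 to 11509 and 504 to 744. The 5 endothelial markers summed to 988 to 1310 in the C57BL/6J controls at 24 h and to 462 to 603 under normoxia, and to 606 to 983 and 245 to 361 in DBA/2J. The 5 podocyte markers summed to 1425 to 1687 and 906 to 1173 in C57BL/6J, and to 751 to 1144 and 496 to 665 in DBA/2J. Mitochondrial genes took 5.96% to 7.87% of the counts in the C57BL/6J controls at 24 h and 22.8% to 25.6% under normoxia, and 3.39% to 3.60% and 11.8% to 12.8% in DBA/2J. In edgeR, all 4 markers of the thick ascending limb and distal tubule were also higher under normoxia than in the 24 h controls. So were 4 of 5 collecting duct markers. Of 5 leukocyte markers 3 were higher and 1 lower. Of 5 endothelial markers 1 was higher and 3 lower (log2 fold changes from -2.20 to 0.85), which their sum does not show. Podocyte markers were lower in 4 of 5, and interstitial markers in 1 of 4. What these shifts contribute to the values below was not tested, and in slices fewer cells of a type cannot be told apart from less RNA per cell.

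Per kilobase of exon, so that genes can be compared, Ndrg1 had the highest level of the 10 genes in all 8 conditions and Hif3a the lowest. Ndrg1, a stress- and differentiation-related gene, averaged between 364 CPM per kilobase under normoxia-hyperoxia and 510 in the 6 h controls, over the 6 libraries of a condition. Hif3a, whose product can restrain the other alpha subunits, had between 1 and 30 counts in each of the 48 libraries, and its values are read below as counts. Adm was the 2nd highest of the 10 in the 24 h controls, at 327 CPM per kilobase, and the 7th under normoxia, at 6.11. Epas1 moved the other way, from 8th (19.3 CPM per kilobase) to 3rd (36.7). Between the groups with the highest and lowest mean CPM the span was 72.5-fold for Adm, 48.8-fold for Ankrd37 and 15.8-fold for Egln3, against 5.47-fold for Vegfa and 2.21-fold for Ndrg1.

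**Figure D1:**
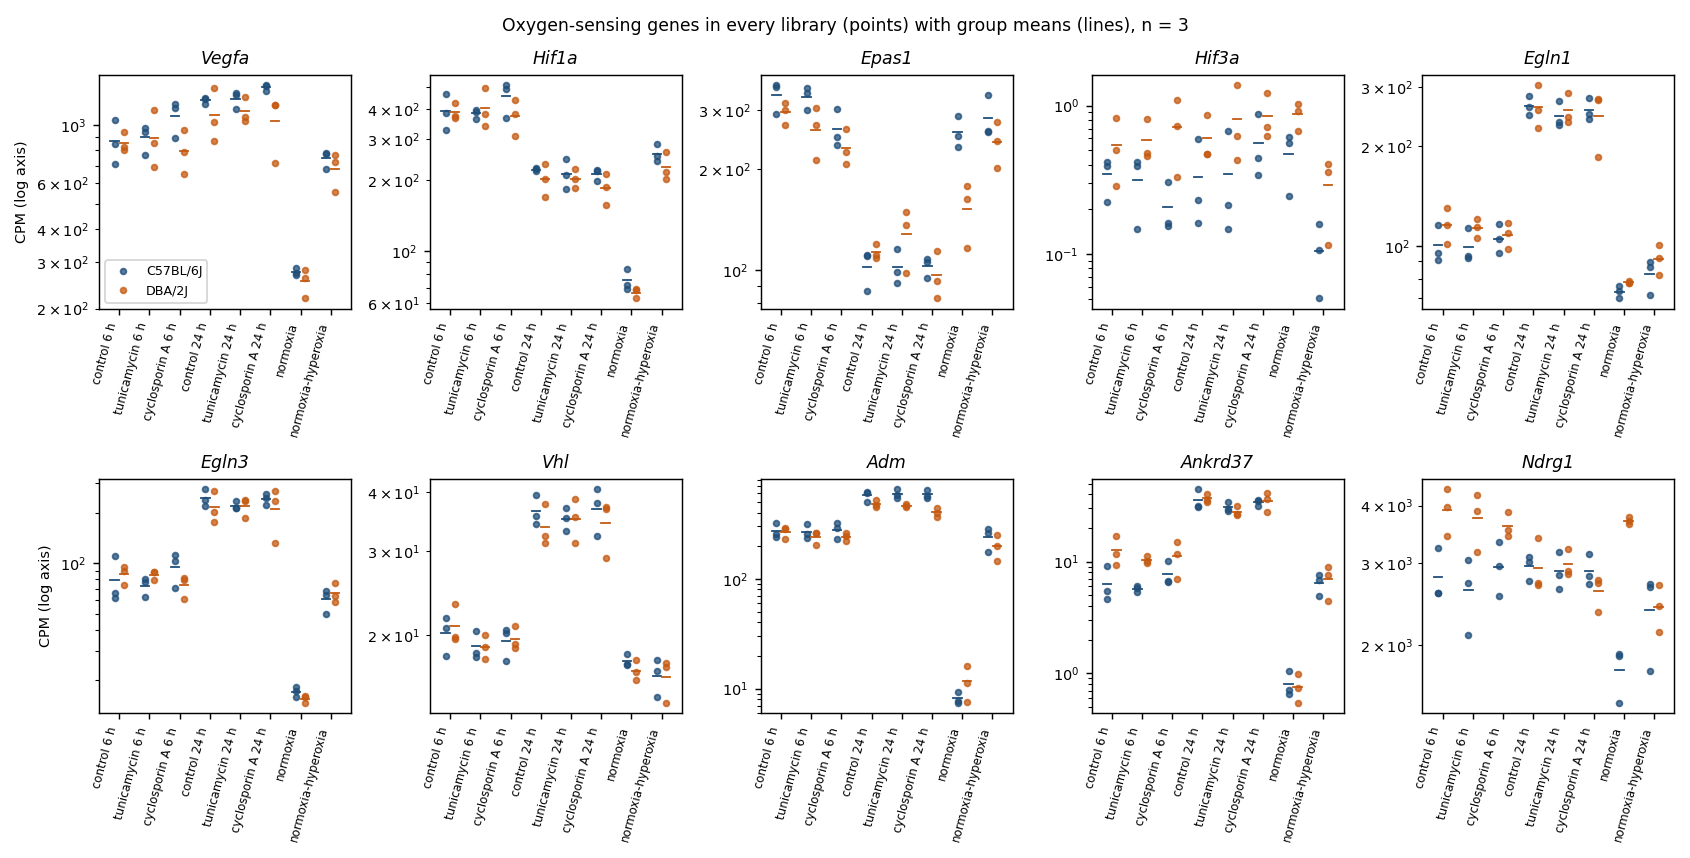
CPM of the 10 genes on log axes (vertical) in the 8 conditions (horizontal); points are libraries, 3 per group, and lines are group means, blue for C57BL/6J and orange for DBA/2J. Adm, Ankrd37, Egln3 and Vegfa have their lowest values in the 6 normoxia libraries.

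Normoxia for 24 h was set against the 24 h controls first, since the labels give no other 24 h reference. Relative to these controls, slices under normoxia held far less mRNA of the response genes Adm, Ankrd37, Egln3 and Vegfa and less of Hif1a, Egln1 and Vhl, while Epas1 was higher. With edgeR's quasi-likelihood test, averaged over the strains, 8 of the 10 genes passed an adjusted p of 0.05, 7 of them lower and 1 higher. The comparison was broad, since 82% of the 17375 genes tested passed, 42.4% higher and 39.7% lower. The median log2 fold change was -1.42 over the 10 genes and 0.05 over all genes tested. In both strains the 3 normoxia libraries lay wholly apart from the 3 controls, in the same direction, for 7 of the 10 genes, as they did for 65.9% of all genes; Ndrg1 was apart in both strains but in opposite directions. Counts of genes without overlap in the comparisons below also require the same direction in both strains.

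**Figure D2:**
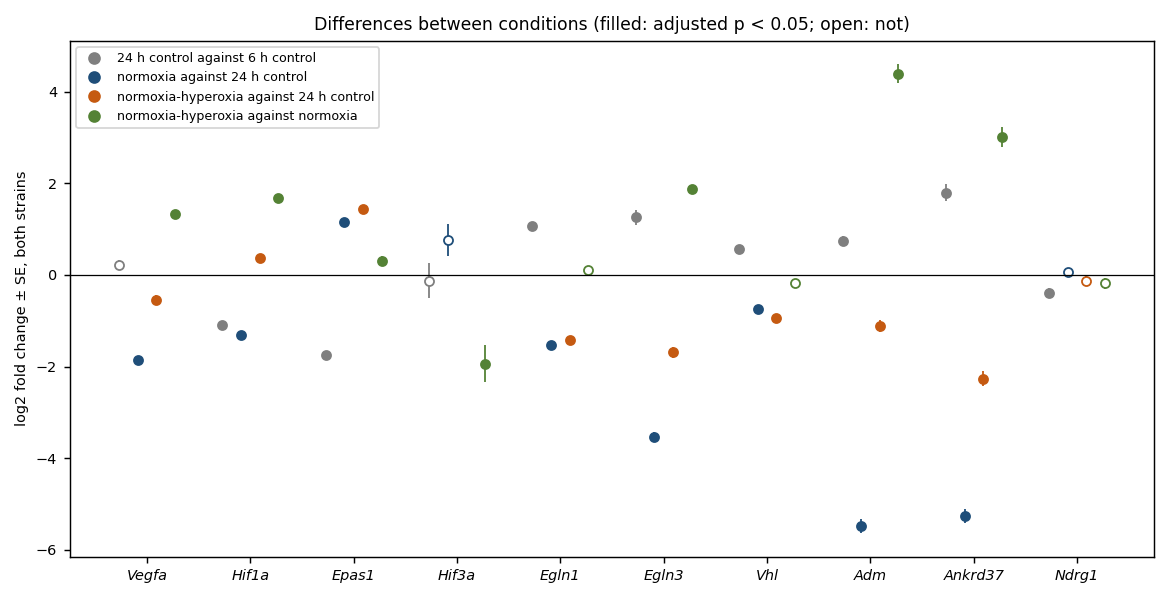
Log2 fold change, averaged over the strains, with its standard error (vertical) for each gene (horizontal) in 4 comparisons; filled points passed an adjusted p of 0.05 in edgeR and open points did not. Adm and Ankrd37 lie below -5 under normoxia, blue, and the open blue point of Ndrg1, at 0.07, lies at -0.20 when libraries are scaled by their totals alone.

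Adm encodes adrenomedullin, a secreted peptide that widens vessels. Its CPM in the 24 h controls was 505, 611 and 613 in C57BL/6J and 455, 525 and 471 in DBA/2J, and under normoxia 9.32, 7.72 and 7.45 in C57BL/6J and 7.57, 11.3 and 16.02 in DBA/2J. No normoxia library came near a control. The fitted level was 44.8-fold lower (log2 fold change -5.48, SE 0.16, edgeR adjusted p 5.19e-12). Ankrd37, an ankyrin-repeat protein known as a HIF target, was as far apart, with 31.6, 30.9 and 44.3 CPM in the C57BL/6J controls and 40.6, 34.4 and 35.9 in the DBA/2J controls. Under normoxia it had 0.656, 1.04 and 0.714 CPM in C57BL/6J and 0.737, 0.990 and 0.547 in DBA/2J, or 13 to 21 counts a library. This was 38.5-fold lower (log2 fold change -5.27, SE 0.15, edgeR adjusted p 2.83e-14). Of the exon bases of Ankrd37, 22.7% also lie in exons of Lrp2bp on the opposite strand, a gene with 425 counts in all libraries together against 15600 for Ankrd37, and 3.7% lie in exons of Ufsp2, with 34499 counts. Whether the counting used strand is not given in the sources used here.

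Vegfa, the growth factor on which capillary endothelium depends, had 1265, 1257 and 1198 CPM in the C57BL/6J controls at 24 h and 870.0, 1382 and 1028 in the DBA/2J controls. Under normoxia it had 285, 274 and 268 CPM in C57BL/6J and 219, 261 and 282 in DBA/2J, so that every normoxia library lay far below every control. The fitted difference was 3.64-fold (log2 fold change -1.87, SE 0.10, edgeR adjusted p 6.67e-11), at -1.95 in C57BL/6J and -1.78 in DBA/2J. The fitted values use scaling factors (TMM) that CPM does not contain, so CPM ratios are not equal to fitted folds. Scaling by library totals alone moved the median log2 fold change of all genes by -0.27 in this comparison, by -0.17 for normoxia-hyperoxia against the 24 h controls, by 0.09 for normoxia-hyperoxia against normoxia and by 0.21 for the 24 h against the 6 h controls. With totals alone, the share of called genes that were higher went from 51.6% to 41.5%, from 49.96% to 39.01%, from 50.3% to 55.2% and from 48.1% to 60.4% in the same order.

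Ndrg1 stood apart from the other response genes. Averaged over the strains its difference was 0.07 (SE 0.08, edgeR adjusted p 0.438), and with totals alone -0.20 (adjusted p 0.0288). The strains went in opposite directions, as described with the strain values below.

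The hydroxylase genes were lower under normoxia. Egln3 encodes a prolyl hydroxylase that is itself induced by low oxygen; it had 239, 219 and 275 CPM in the C57BL/6J controls and 176, 271 and 201 in the DBA/2J controls. Under normoxia its values were 17.2, 18.3 and 15.8 CPM in C57BL/6J and 16.05, 14.7 and 15.9 in DBA/2J. The 6 normoxia libraries lay close together in both strains, and the fitted level was 11.7-fold lower (log2 fold change -3.54, SE 0.10, edgeR adjusted p 5.26e-13). Egln1, the main oxygen sensor of the family, had between 226 and 305 CPM in the 6 controls and between 69.8 and 78.7 under normoxia. It was 2.88-fold lower (log2 fold change -1.53, SE 0.07, edgeR adjusted p 6.18e-12). Vhl was 31.3 to 39.5 CPM in the controls and 16.1 to 18.3 under normoxia, without overlap in either strain (log2 fold change -0.75, SE 0.07, edgeR adjusted p 3.64e-08).

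The alpha subunit genes went in different directions. Hif1a had 225, 223 and 219 CPM in the C57BL/6J controls and 169, 235 and 202 in the DBA/2J controls, and under normoxia 69.3, 84.3 and 72.0 in C57BL/6J and 63.1, 68.4 and 68.8 in DBA/2J. Every normoxia library lay below every control, at a fitted log2 fold change of -1.31 (SE 0.07, edgeR adjusted p 9.57e-11). Epas1, the alpha subunit of vessels and interstitium, was the 1 gene of the 10 that was higher. Its CPM was 86.6, 111 and 111 in the C57BL/6J controls and 250.2, 288 and 233 under normoxia; in DBA/2J it was 111, 119.6 and 109 in the controls and 116, 163 and 178 under normoxia, where the lowest normoxia library lies among the controls. The fitted difference was 1.15 on the log2 scale (SE 0.10, edgeR adjusted p 4.14e-08). Hif3a did not pass, with 2 to 17 counts a library in the controls and 5 to 25 under normoxia (log2 fold change 0.76, SE 0.35, edgeR adjusted p 0.0531). It passed when replicate 1 of the C57BL/6J controls, replicate 2 of the DBA/2J controls, replicate 2 of C57BL/6J normoxia or replicate 2 of DBA/2J normoxia was left out (log2 fold changes 1.13, 0.95, 0.92 and 0.84). Of the exon bases of Hif1a, 2.5% are shared with Gm49321 on the same strand, which had 12062 counts in all libraries together against 246816 for Hif1a.

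Normoxia-hyperoxia was set against the same 24 h controls, so the values of the 2 comparisons share these 6 libraries. The same response genes were below the controls but by less, and Hif1a lay above them. Of the 9 genes tested, 8 passed in edgeR, 6 lower and 2 higher, where 68.2% of the 17256 genes tested passed; Hif3a was left out by the filter on low counts. For 7 of the 9 genes tested the libraries did not overlap in either strain, as for 50.9% of all genes. Vegfa had 785, 677 and 776 CPM in C57BL/6J and 555, 719 and 767 in DBA/2J, below every 24 h control (log2 fold change -0.54, SE 0.11, edgeR adjusted p 0.000346). Adm had 283, 177 and 260 CPM in C57BL/6J and 146, 201 and 249 in DBA/2J, 2.15-fold below the controls (log2 fold change -1.11, SE 0.13, edgeR adjusted p 9.74e-06). Ankrd37, with 4.42 to 9.03 CPM over the 6 libraries, was 4.82-fold below them, and Egln3, with 49.8 to 76.4 CPM, 3.22-fold below. Egln1 and Vhl were below the controls too, at -1.43 (SE 0.08) and -0.93 (SE 0.08). Epas1 was higher than in the controls in every library of both strains, at 258, 333 and 259 CPM in C57BL/6J and 202, 242 and 276 in DBA/2J (log2 fold change 1.44, SE 0.09, edgeR adjusted p 6.13e-09). Hif1a was higher (log2 fold change 0.36, SE 0.08, edgeR adjusted p 0.00104; with totals alone 0.20, adjusted p 0.0491), with 284, 242 and 253 CPM in C57BL/6J and 202, 265 and 216 in DBA/2J. The DBA/2J libraries overlapped their controls. Ndrg1 did not pass (log2 fold change -0.13, SE 0.11, edgeR adjusted p 0.309; with totals alone -0.30, adjusted p 0.0279). Beside these values, in edgeR 4 of 5 podocyte, 4 of 4 thick ascending limb and distal tubule, 5 of 5 collecting duct and 4 of 5 leukocyte markers were higher than in the controls, 4 of 5 proximal tubule and 1 of 5 leukocyte markers were lower, and endothelial and interstitial markers went both ways; their part was not tested.

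Compared directly with normoxia, slices under normoxia-hyperoxia held more mRNA of Adm, Ankrd37, Egln3, Vegfa and Hif1a, while Egln1 and Vhl did not pass. This comparison does not involve the controls. The titles place its groups in an ischemia and a reperfusion arm, so arm and oxygen condition cannot be told apart here either. In edgeR 7 of the 10 genes passed, 6 higher and 1 lower, where 73.5% of the 17228 genes tested passed, and 6 genes did not overlap in either strain, as for 53.8% of all genes. Hif3a was the 1 lower gene and 1 of the 6 without overlap, and its place in both counts rests on the filter described below. Adm was 21.01-fold higher (log2 fold change 4.39, SE 0.21, edgeR adjusted p 4.92e-09), Ankrd37 8.06-fold (3.01, SE 0.22), Egln3 3.66-fold (1.87, SE 0.09) and Vegfa 2.53-fold (1.34, SE 0.08). Hif1a was 3.22-fold higher (log2 fold change 1.69, SE 0.07, edgeR adjusted p 1.56e-11), and its libraries did not overlap in either strain. For Egln1 the difference was 0.11 (SE 0.06, edgeR adjusted p 0.126; with totals alone 0.20, adjusted p 0.0132) and for Vhl -0.17 (SE 0.07, edgeR adjusted p 0.0523). Egln1 passed without replicate 2 of C57BL/6J normoxia-hyperoxia (0.15, adjusted p 0.0371), and Vhl without any 1 of replicate 3 of DBA/2J normoxia, replicate 1 of C57BL/6J normoxia-hyperoxia and replicates 2 or 3 of DBA/2J normoxia-hyperoxia (-0.22 to -0.19). A p above the threshold does not show that these levels were equal. Epas1 was 0.31 higher on the log2 scale (SE 0.11, edgeR adjusted p 0.0208). In C57BL/6J it was 0.14 higher (edgeR adjusted p 0.466) with overlapping libraries, and in DBA/2J 0.49 (adjusted p 0.0141) without overlap. Without replicate 3 of C57BL/6J normoxia, replicate 2 of C57BL/6J normoxia-hyperoxia or replicate 3 of DBA/2J normoxia-hyperoxia the edgeR adjusted p for Epas1 was 0.0575, 0.0566 and 0.0831. Ndrg1 did not pass on average over the strains (-0.19, SE 0.11, edgeR adjusted p 0.146; with the replicate block -0.20, adjusted p 0.0299). Hif3a was the 1 gene that was lower, on few counts. It had 14, 5 and 11 counts in C57BL/6J and 25, 13 and 22 in DBA/2J under normoxia, against 2, 4 and 1 and 2, 2 and 8 under normoxia-hyperoxia. Pooled over the 6 libraries and scaled to their totals, the ratio was 0.257 (95% interval 0.148 to 0.425, for counting error only). The edgeR log2 fold change was -1.94 (SE 0.40, adjusted p 0.00043). Hif3a passed the filter on low counts here only through the normoxia libraries, where it was higher. The filter left it out of both comparisons of normoxia-hyperoxia with controls, so this p is not taken as support for a fall. Markers of cell types moved with these differences: all 5 proximal tubule markers were lower in edgeR under normoxia-hyperoxia than under normoxia (median log2 fold change -4.54). All 5 podocyte (median 1.20) and all 5 endothelial markers (0.93) were higher, as were 4 of 5 collecting duct, 4 of 5 leukocyte, 3 of 4 interstitial and 2 of 4 thick ascending limb and distal tubule markers, with none lower in these classes. The part of these shifts was not tested.

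Time in culture was compared between the controls of 24 h and 6 h. Later slices held more mRNA of the hydroxylase genes, Vhl, Adm and Ankrd37 and less of both main alpha subunits. In edgeR 8 of the 10 genes passed, 5 higher and 3 lower, where 72% of the 16962 genes tested passed, and 7 did not overlap in either strain, as for 55.8% of all genes. Ankrd37 had 4.59, 9.07 and 5.43 CPM in C57BL/6J and 9.32, 16.9 and 11.7 in DBA/2J at 6 h, and was 3.48-fold higher at 24 h (log2 fold change 1.80, SE 0.18, edgeR adjusted p 1.83e-06). Egln3, with 61.9, 110.2 and 66.2 CPM in C57BL/6J and 73.8, 89.9 and 94.7 in DBA/2J at 6 h, was 2.39-fold higher (1.26, SE 0.16) and Egln1, with 91.2 to 131 CPM at 6 h, 2.09-fold (1.07, SE 0.09). Adm (0.75, SE 0.09) and Vhl (0.56, SE 0.08) were higher as well; over the 6 libraries of 6 h, Adm had 229 to 321 CPM and Vhl 18.1 to 23.2. Epas1 fell 3.37-fold, from 355, 292 and 352 CPM in C57BL/6J and 315, 271 and 300.4 in DBA/2J (log2 fold change -1.75, SE 0.08, edgeR adjusted p 1.93e-10). Hif1a fell 2.14-fold (log2 fold change -1.10, SE 0.10, edgeR adjusted p 1e-07), from 328, 464 and 387 CPM in C57BL/6J and 366, 425 and 376 in DBA/2J. Vegfa did not pass: at 6 h it had 708, 1041 and 845 CPM in C57BL/6J and 822, 938 and 806 in DBA/2J, and its range at 24 h overlapped that at 6 h in DBA/2J (log2 fold change 0.22, SE 0.11, edgeR adjusted p 0.0953). With totals alone the difference was 0.44 (adjusted p 0.00272), and with no filter on low counts 0.21 (adjusted p 0.0219). It also passed without replicate 2 of the C57BL/6J controls at 6 h (0.30, adjusted p 0.0195) or replicate 1 of the DBA/2J controls at 24 h (0.29, adjusted p 0.0309). Hif3a did not pass (-0.12, SE 0.39, edgeR adjusted p 0.785), a sign that turns to 0.08 with totals alone. Ndrg1 was -0.38 (SE 0.10, edgeR adjusted p 0.00223), and -0.17 with totals alone (adjusted p 0.113). Its mean CPM, which does not contain the TMM factors, was 2807 at 6 h and 2958 at 24 h in C57BL/6J, with overlap. In DBA/2J it was 3917 and 2939, without overlap. Summed proximal tubule markers were 2030 to 4160 CPM in C57BL/6J and 4952 to 5738 in DBA/2J at 6 h, well above the 24 h controls. All 5 proximal tubule markers were lower at 24 h in edgeR (median log2 fold change -2.65), as were all 4 of the thick ascending limb and distal tubule (-1.85), all 5 of the collecting duct (-1.44) and all 5 of podocytes (-0.83). Of the others 2 of 5 endothelial, 3 of 4 interstitial and 3 of 5 leukocyte markers were lower, and 1, 0 and 1 higher. The part of these shifts in the differences was not tested.

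Against the 6 h controls, which share those 6 libraries with the comparison over time, normoxia at 24 h was lower for 9 of the 10 genes in edgeR, where 65.8% of the 16819 genes tested passed. Adm was 27.5-fold lower (log2 fold change -4.78, SE 0.17), Ankrd37 11.4-fold (-3.51, SE 0.24), Hif1a 5.46-fold (-2.45, SE 0.10), Egln3 5.03-fold (-2.33, SE 0.15) and Vegfa 3.22-fold (-1.69, SE 0.10). Here Epas1 was lower too (-0.65, SE 0.09), the opposite side from its comparison with the 24 h controls. Vhl was the weakest, at -0.23 (SE 0.08, edgeR adjusted p 0.0142), and missed the threshold without replicate 2 of the C57BL/6J controls at 6 h or replicates 2 or 3 of DBA/2J normoxia (adjusted p 0.0635, 0.0550 and 0.0616), and with no filter on low counts (-0.21, adjusted p 0.0661). The libraries did not overlap in either strain for 7 of the 10 genes, as for 44.6% of all genes. Of the markers, all 5 of podocytes, all 5 of endothelium and all 4 of interstitium were lower under normoxia than at 6 h in edgeR, as were 2 of 4 of the thick ascending limb and distal tubule. Of the proximal tubule 4 of 5 were higher, and collecting duct and leukocyte markers went both ways; the part of these shifts was not tested. For normoxia-hyperoxia against the 6 h controls, 7 of 9 genes tested were lower and none higher in edgeR, where 44.9% of the 16841 genes tested passed, and the fitted differences of the 9 ran from -0.71 to -0.29. Of the 9, Hif1a, Egln1 and Vhl did not overlap in either strain, 3 genes, as for 25.4% of all genes. All 5 proximal tubule markers were lower here (median log2 fold change -3.89), as were 2 of 4 interstitial markers. Higher were 4 of 5 collecting duct, 4 of 5 leukocyte, 1 of 5 podocyte, 1 of 5 endothelial and 1 of 4 thick ascending limb and distal tubule markers, and their part was not tested. Adm (-0.34, edgeR adjusted p 0.0737) and Ankrd37 (-0.45, edgeR adjusted p 0.125) did not pass. Adm passed in DESeq2 (adjusted p 0.0445), with no filter on low counts (edgeR adjusted p 0.000178) and in 1 fit of all 48 libraries (0.0288), and Ankrd37 in the last 2 of these (-0.47, edgeR adjusted p 0.00266, and -0.45, adjusted p 0.0427). The count of 7 fell to 4 without replicate 3 of C57BL/6J normoxia-hyperoxia or without replicate 1 of DBA/2J normoxia-hyperoxia. The difference of Vegfa (-0.30, SE 0.11, edgeR adjusted p 0.0352) lost the threshold in 7 of the 12 fits that left out 1 library, with adjusted p up to 0.0818: without replicates 2 or 3 of the C57BL/6J controls, replicate 2 of the DBA/2J controls, replicates 2 or 3 of C57BL/6J normoxia-hyperoxia, or replicates 1 or 2 of DBA/2J normoxia-hyperoxia. It was lost as well with totals alone (-0.27, edgeR adjusted p 0.0514) and in the fit of all 48 libraries (-0.29, adjusted p 0.0531). Egln3 lost the threshold in 7 of the 12 (-0.43 to -0.24, edgeR adjusted p 0.0547 to 0.0951): without replicate 2 of the C57BL/6J controls, replicates 2 or 3 of the DBA/2J controls, replicates 2 or 3 of C57BL/6J normoxia-hyperoxia, or replicates 1 or 2 of DBA/2J normoxia-hyperoxia. Epas1 lost it in 5 (-0.28 to -0.25, edgeR adjusted p 0.0520 to 0.0605): without replicate 3 of the C57BL/6J controls, replicate 1 of the DBA/2J controls, replicates 1 or 3 of C57BL/6J normoxia-hyperoxia, or replicate 1 of DBA/2J normoxia-hyperoxia.

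In order of group means, Vegfa was highest in C57BL/6J with cyclosporin A at 24 h (1389 CPM) and tunicamycin at 24 h (1256) and in the C57BL/6J controls at 24 h (1240.4), and lowest under normoxia, at 276 CPM in C57BL/6J and 254 in DBA/2J. Of the 15 pairs of neighbours in that order, 13 overlapped in range. The exceptions were the pair at the top and the gap between normoxia-hyperoxia in DBA/2J (680.4 CPM) and normoxia in C57BL/6J. For the other genes 12 to 15 of the 15 neighbouring pairs overlapped, so single steps in these orders are not read as differences.

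The balance of the HIF alpha subunits shifted with the conditions. Per kilobase of exon, the ratio of Hif1a to Epas1 mRNA was 2.08 ± 0.33 (SD, n = 3) in the C57BL/6J controls at 24 h and 0.278 ± 0.015 under normoxia. In DBA/2J it was 1.69 ± 0.22 and 0.426 ± 0.078, so Hif1a was the more abundant in every control library of 24 h and Epas1 in every normoxia library. Under normoxia-hyperoxia the ratio lay between these, at 0.886 ± 0.181 in C57BL/6J and 0.910 ± 0.151 in DBA/2J. At 6 h the controls had 1.14 ± 0.33 and 1.26 ± 0.20. Labels were permuted separately in the 2 strains (exact test, two-sided), with 400 arrangements and a smallest possible p of 0.005. The exact test gave that p for 3 of 4 comparisons (adjusted p 0.00667): the log2 ratio differed by -2.45 between normoxia and the 24 h controls, by -1.07 between normoxia-hyperoxia and those controls, and by 1.38 between normoxia-hyperoxia and normoxia. Between the controls of 24 h and 6 h it differed by 0.66 (exact p 0.01, adjusted p 0.01).

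**Figure D3:**
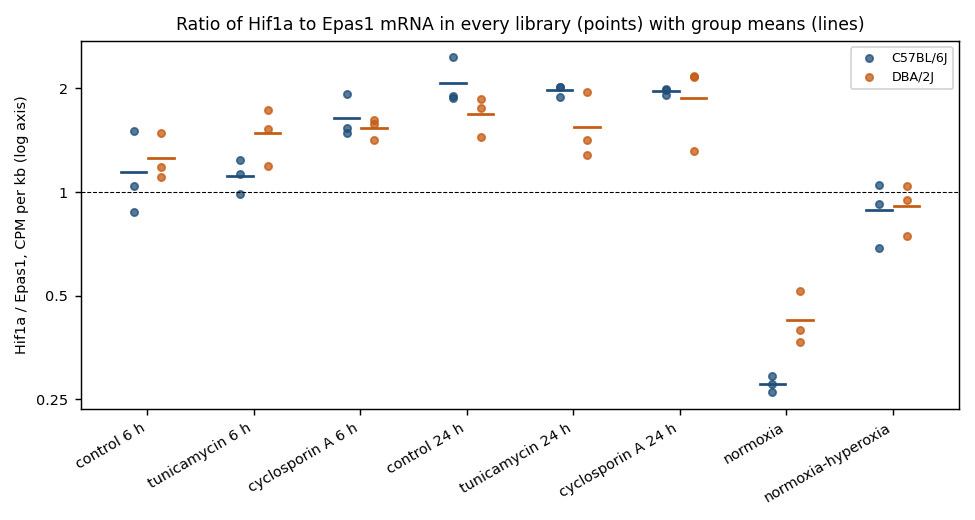
Ratio of Hif1a to Epas1 mRNA per kilobase (vertical, log axis) in the 8 conditions (horizontal); points are libraries, 3 per group, lines are group means and the dashed line marks a ratio of 1. The 6 normoxia libraries lie between 0.263 and 0.514, below every other library.

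Among the strain differences that passed in edgeR, that of Ndrg1 under normoxia was the largest. Its CPM was 1917, 1504 and 1892 in C57BL/6J and 3695, 3786 and 3643 in DBA/2J, against 2754, 3021 and 3100.1 in the C57BL/6J controls at 24 h and 2692, 3407 and 2718 in the DBA/2J controls. The normoxia libraries of the strains thus lay on opposite sides of all controls. In edgeR, Ndrg1 fell in C57BL/6J (log2 fold change -0.52, SE 0.12, adjusted p 0.000926) and rose in DBA/2J (0.66, SE 0.12, adjusted p 0.00011), and the difference between the strains' responses was 1.19 (SE 0.17, adjusted p 0.000366). With totals alone the strain values were -0.74 and 0.34. Between normoxia and normoxia-hyperoxia Ndrg1 rose in C57BL/6J (0.42, SE 0.16) and fell in DBA/2J (-0.79, SE 0.16), an interaction of -1.21 (SE 0.22, edgeR adjusted p 0.00242). The interaction held in every fit that left out 1 library, between 1.02 and 1.26 for the first comparison and between -1.37 and -1.07 for the second. Summed markers of the thick ascending limb and distal tubule were 11994 to 16855 CPM under normoxia in C57BL/6J and 4230.4 to 5462 in DBA/2J, and those of the proximal tubule were the higher in DBA/2J, as given above; their part was not tested. Exons of Ndrg1 share 6.4% of their bases with an antisense gene of 1930 counts in all, against 2769801 for Ndrg1.

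Epas1 responded more to normoxia in C57BL/6J (log2 fold change 1.54, SE 0.14) than in DBA/2J (0.75, SE 0.13), with an interaction of -0.79 (SE 0.19, edgeR adjusted p 0.013). With totals alone the strain values were 1.33 and 0.43 (edgeR adjusted p 2.23e-06 and 0.0164). Ndrg1 and Epas1 were the 2 genes of the 10 with an interaction for normoxia against the 24 h controls, where 17% of all genes had one. For normoxia-hyperoxia against normoxia it was 1 gene, Ndrg1, where 18.2% of all genes had one. That count of 1 was larger in 4 of 18 alternatives, given with the processing below. For Adm the interaction was 0.86 (SE 0.28, edgeR adjusted p 0.0519), 0.83 in DESeq2 (adjusted p 0.0134) and 0.88 with no filter on low counts (edgeR adjusted p 7.43e-07); without replicate 1 of DBA/2J normoxia it was 1.09 (edgeR adjusted p 0.0028). None of the genes had an interaction in the other 8 comparisons in edgeR, where 0% of all genes did for the 4 drug comparisons, 1.43% for normoxia-hyperoxia against the 24 h controls, 3.66% for normoxia against the 6 h controls, 0.69% for the 24 h against the 6 h controls and 0.232% for normoxia-hyperoxia against the 6 h controls; at an unadjusted p under 0.05 there were 0 to 2 genes in each, and DESeq2 found 1, Ndrg1 in normoxia against the 6 h controls (0.74, adjusted p 0.005). That interaction of Ndrg1 also passed in edgeR with no filter (0.70, adjusted p 0.00395), with the replicate block (0.77, adjusted p 0.0379) and in the fit of all 48 libraries (0.75, adjusted p 0.0307).

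**Figure D4:**
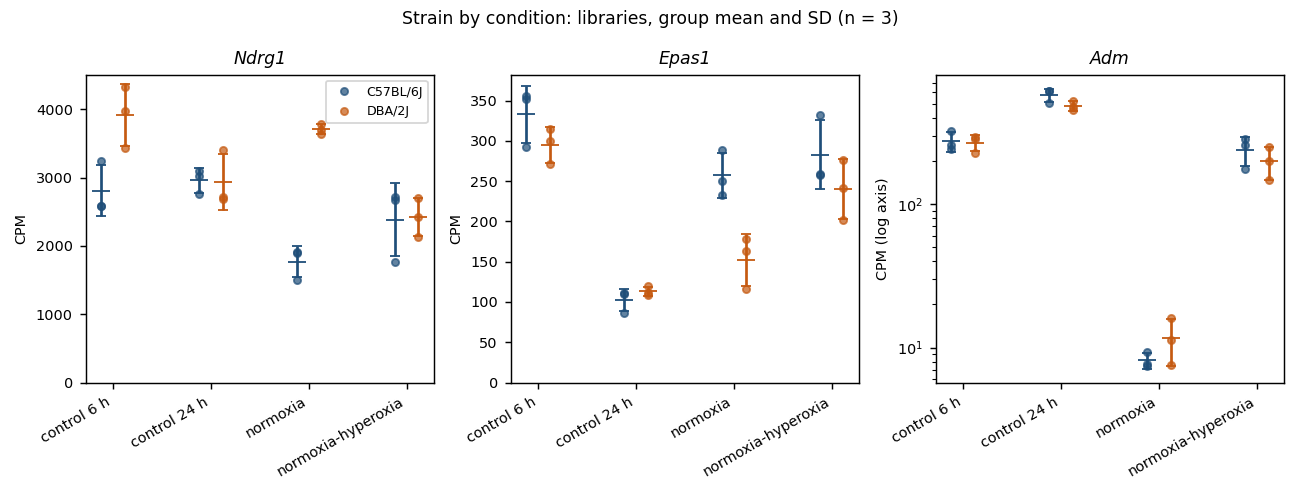
CPM of Ndrg1, Epas1 and Adm (vertical; log axis for Adm) in 4 conditions (horizontal) by strain; points are libraries, the wide mark is the mean and bars are SD, n = 3. Under normoxia Ndrg1 lies at 1504 to 1917 in C57BL/6J and at 3643 to 3786 in DBA/2J, while the strains overlap in the 24 h controls.

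Within a condition, DBA/2J minus C57BL/6J, Ndrg1 was higher under normoxia (1.14, SE 0.16, edgeR adjusted p 4.97e-05) and Epas1 lower (-0.68, SE 0.16, adjusted p 0.00292), 2 of 10 genes where 46.8% of all genes differed. In the 6 h controls Epas1 was lower (-0.32, SE 0.11, edgeR adjusted p 0.0395) and Ankrd37 higher (0.84, SE 0.27, adjusted p 0.0382), where 26.2% of all genes differed. That count of 2 fell to 0 or 1 in 7 of the 12 fits without 1 library: to 0 without replicates 1 or 3 of the C57BL/6J controls at 6 h, replicates 2 or 3 of the DBA/2J controls at 6 h or replicate 3 of the DBA/2J controls at 24 h, and to 1 without replicate 1 of the DBA/2J controls at 6 h or replicate 3 of the C57BL/6J controls at 24 h. Under normoxia-hyperoxia Hif1a was lower in DBA/2J (-0.29, SE 0.10, edgeR adjusted p 0.046; 25.7% of all genes), a call that was lost in 8 of 12 such fits. In the 24 h controls none of the 10 genes differed in edgeR, where 22.2% of all genes did; none passed an unadjusted p of 0.05 in edgeR, and DESeq2 called 0, with 1 at an unadjusted p under 0.05. The reads were aligned to GRCm38, the reference made from C57BL/6J, and whether this lowers counts in DBA/2J was not tested.

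None of the 10 genes passed for either drug at either time in edgeR. For tunicamycin at 6 h (9 genes tested, Hif3a being left out by the filter) and cyclosporin A at 6 h the called share of all genes was 0% and 0%, for tunicamycin at 24 h 1.38% (233 of 16905 genes) and for cyclosporin A at 24 h 0%. At an unadjusted p under 0.05 the number of the 10 genes was 0, 1, 1 and 0, and DESeq2 called 0 in each; over all genes, unadjusted counts were 281, 734, 2174 and 1107 and DESeq2 called 0, 50, 532 and 20. For none of the genes tested did both strains lie apart from their controls on the same side, where 0.139%, 0.744%, 3.16% and 1.05% of all genes were, for tunicamycin and cyclosporin A at 6 h and then at 24 h. Vegfa differed from its control by 0.05 (SE 0.14) with tunicamycin and 0.14 (SE 0.13) with cyclosporin A at 6 h, and by 0.04 (SE 0.10) and 0.02 (SE 0.13) at 24 h. Its cyclosporin A libraries at 24 h had 1416, 1345 and 1407 CPM in C57BL/6J and 719, 1190.2 and 1185 in DBA/2J, and the DBA/2J libraries overlapped their controls of 870.0 to 1382 CPM. The 2 genes with an unadjusted p under 0.05 were Epas1 with cyclosporin A at 6 h (-0.32, SE 0.09, edgeR adjusted p 0.647) and Ankrd37 with tunicamycin at 24 h (-0.29, SE 0.09, edgeR adjusted p 0.154). Without the filter on low counts Ankrd37 passed (adjusted p 0.0402). Each drug shares its controls with the other drug at the same time. A p above the threshold does not show that the drugs left these genes unchanged.

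Genes of the same pathway outside the 10 were read from 3 lists, whose counts stand beside large called shares of all genes: 82% for normoxia, 68.2% for normoxia-hyperoxia and 73.5% for the direct comparison of these, 72% for 24 h against 6 h, and 65.8% and 44.9% for normoxia and normoxia-hyperoxia against the 6 h controls. Of 22 other known HIF targets outside glycolysis, 21 were lower and 1 higher under normoxia than in the 24 h controls, with a median log2 fold change of -2.38. Hmox1, which degrades heme, had a log2 fold change of -6.93, Ero1a, an oxidase of protein folding, -5.70 and Plin2, a lipid droplet coat protein, -4.54. The gene that was higher was Car9, a carbonic anhydrase (0.65). It had 4.73, 5.47 and 8.88 CPM in the C57BL/6J controls and 10.8, 8.07 and 9.69 under normoxia, and its libraries overlapped in both strains. Under normoxia-hyperoxia 19 of the 22 were lower than in the controls and 1 higher, Bhlhe40, a transcriptional repressor (0.74), with a median of -1.27. Against normoxia 17 were higher and 2 lower, Mxi1 (-0.20) and Car9 (-4.79), which went to between 2 and 10 counts a library. Between 6 h and 24 h in the controls 20 rose and 1, Bhlhe40, fell (-1.03), and the median was 0.98. Against the 6 h controls 21 were lower and 1 higher, Car9 (1.70), under normoxia, and 11 lower and 1 higher, Edn1 (1.25), under normoxia-hyperoxia. The median of all genes tested lay between -0.02 and 0.05 in these 6 comparisons.

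Of 10 other genes of the sensing machinery, 9 passed for normoxia against the 24 h controls, 3 higher and 6 lower, with a median of -0.15, where 82% of all genes passed. Cited2, which competes with HIF for its coactivators, was lower (-0.94) and so was Arnt, the partner of the alpha subunits (-0.65), while Egln2, the third prolyl hydroxylase, was higher (0.71). Against normoxia, 5 of the 10 were higher under normoxia-hyperoxia and 4 lower, with Cited2 at 1.38, Arnt2 at 0.83, Arnt at 0.72 and Cul2, a scaffold of the Vhl ubiquitin ligase, at -0.49. Of the 10, 3 were higher and 2 lower for normoxia-hyperoxia against the 24 h controls, 5 and 2 for 24 h against 6 h, 3 and 4 for normoxia against the 6 h controls and 4 and 1 for normoxia-hyperoxia against them. Among 13 ligands and receptors of VEGF and adrenomedullin, 5 rose and 5 fell under normoxia, the largest fall being that of Pgf, the placental growth factor that shares a receptor with Vegfa. Pgf went from 143, 231 and 206 CPM in the C57BL/6J controls and 139, 154 and 85.7 in the DBA/2J controls to between 3 and 16 counts a library, a fitted log2 fold change of -8.33 (SE 0.27). Adm2, related to adrenomedullin, was lower (-3.61), and the receptors Flt4 (-1.33) and Calcrl (-1.23) were lower too. Under normoxia-hyperoxia 6 of the 13 were higher than in the 24 h controls and 3 lower. Pgf (-4.04) and Adm2 (-3.64) were lower, and Vegfd (1.71) and the VEGF receptor Kdr (1.55) were higher. Against normoxia 8 were higher, with Pgf at 4.31, and 3 lower. Against the 6 h controls 2 were higher and 10 lower under normoxia, and 1 higher and 3 lower under normoxia-hyperoxia. Between 6 h and 24 h all 13 changed, where 72% of all genes did, 4 rising, led by Pgf (3.25), and 9 falling, among them Vegfd (-1.70) and Kdr (-1.36). For the drugs, no gene of the 3 lists, 45 in all, passed in edgeR. At an unadjusted p under 0.05 there were 1 and 5 for tunicamycin and cyclosporin A at 6 h and 7 and 3 at 24 h, and DESeq2 called 0, 0, 3 and 0, the 3 being Siah2, Plin2 and Stc2.

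Across the 16 group means of log2 CPM, which share libraries and conditions, Vegfa ran closest by Pearson correlation to Adm among the 10 genes (Pearson r 0.972, Spearman rho 0.891), followed by Egln3 (0.913 and 0.879) and Ankrd37 (0.877 and 0.635). By Spearman correlation Vhl (0.859) and Egln1 (0.824) stood before Ankrd37. Egln3 and Ankrd37 (Pearson r 0.983) and Egln1 and Vhl (0.973) also ran together. Epas1 ran against Egln1 (-0.853), and Ndrg1 and Vegfa had a Pearson r of 0.0488 and a Spearman rho of 0.00588. For Vegfa and Hif1a the measures differed, at 0.676 and 0.25. Of 12326 genes compared, those most like Vegfa by Pearson correlation were Snapc1 (0.994), Ddit4 (0.987), Lama5 (0.985), Ptp4a2 (0.985) and Micall2 (0.985), and Snapc1, Lama5 and Ptp4a2 were also among the first 5 by Spearman correlation. Ddit4 is 1 of the 22 listed HIF targets. For Hif3a, whose few counts make its group means coarse, the closest were Lbhd1 (0.955), Phb2 (0.943), Commd10 (0.930), Tomm6 (0.928) and Mrpl38 (0.919). These correlations describe 16 points that largely fall into a few conditions, and no test was made of them.

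**Figure D5:**
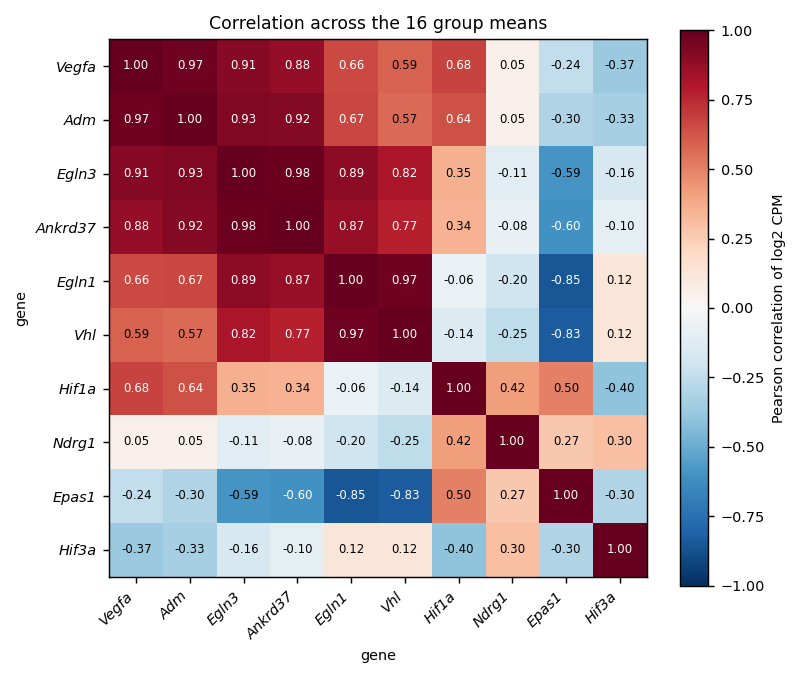
Pearson correlation (colour and number) between each pair of the 10 genes over the 16 group means of log2 CPM; both axes list the genes. Vegfa, Adm, Egln3 and Ankrd37 form a block between 0.877 and 0.983, and Ndrg1 and Hif3a lie outside it.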

How the data were processed

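Messenger RNA of 48 kidney slice libraries (Illumina stranded mRNA ligation kit, per the labels) was sequenced and deposited by the authors as 1 table of raw read counts per Ensembl gene. Per the submitters' processing notes the tools were bcl2fastq 2.20.0, FastQC 0.11.8, STAR 2.7.9a and featureCounts 1.5.1 on GRCm38; the strand setting and annotation release are not given in the sources used here. Symbols were found for 55141 of 55487 identifiers. The 10 genes and all gene lists were chosen with earlier results of these data known. Each of 10 comparisons was fitted to its 12 libraries (strain by condition) with edgeR 4.0.16 (TMM factors, filterByExpr, robust quasi-likelihood F test) in R 4.3.3, and p-values were adjusted over all genes tested (Benjamini-Hochberg, threshold 0.05). The code was tested on simulated data. Alternatives were RLE factors, library totals, no filter, DESeq2 1.42.0, a replicate block, 1 fit of all 48 libraries and leaving out each library. From each pathway list the text names up to 4 genes, those with the largest absolute log2 fold change among those past the threshold with a mean log2 CPM of at least 1; 1 gene that this rule picks is not reported here, and other list genes were named after their values were seen. Intervals cover counting error only.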

Additional observations from a re-analysis of the deposited data

Results flagged for a closer look

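For 3 results the response differed between the strains by a test of the difference itself (edgeR interaction, DBA/2J minus C57BL/6J). The response of Ndrg1 to normoxia against the 24 h controls differed by 1.19 on the log2 scale (adjusted p 0.000366), -0.52 in C57BL/6J and 0.66 in DBA/2J, and leaving out any 1 library gave 1.02 to 1.26. For normoxia-hyperoxia against normoxia, which shares the normoxia libraries with the first, Ndrg1 differed by -1.21 (adjusted p 0.00242), and leaving out any 1 library gave -1.37 to -1.07. The response of Epas1 to normoxia against the 24 h controls differed by -0.79 (adjusted p 0.013), at 1.54 in C57BL/6J against 0.75 in DBA/2J; leaving out any 1 library gave -0.93 to -0.64. Over all alternatives the adjusted p reached at most 0.00351, 0.0108 and 0.0348 in that order.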

How the results depend on the processing

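Of 69 gene values, 47 kept their direction and side of the threshold under all alternatives; over 1242 such alternatives 1168 were unchanged in this sense, 30 lost the threshold, 32 gained it and 12 changed sign. Of 428 alternatives for 24 counts of genes, 393 stayed within 1.5 times the reported count. With no filter on low counts, the count changed by tunicamycin at 24 h was 1 in place of 0, the interactions were 2 in place of 1 for normoxia-hyperoxia against normoxia, 1 in place of 0 for the 24 h against the 6 h controls and 2 in place of 0 for normoxia against the 6 h controls, and the strain differences were 1 in place of 0 in the 24 h controls and 3 in place of 1 under normoxia-hyperoxia. DESeq2 gave 2 interactions for normoxia-hyperoxia against normoxia and 1 for normoxia against the 6 h controls, and so did the fit of all 48 libraries, which gave 1 strain difference in the 6 h controls in place of 2 and 0 under normoxia-hyperoxia. The last was also 0 with RLE factors and with library totals. With totals the difference of Ndrg1 for normoxia against the 24 h controls was -0.20 (adjusted p 0.0288) and that of Hif3a between the 24 h and 6 h controls 0.08. Leaving out 1 library at a time gave 0 to 1 interactions for normoxia against the 6 h controls, 4 to 8 changed genes for normoxia-hyperoxia against the 6 h controls, and strain differences of 0 to 3 at 6 h, 0 to 1 at 24 h (1 without replicate 2 of the C57BL/6J controls at 6 h) and 0 to 1 under normoxia-hyperoxia. It turned the sign of Vegfa for tunicamycin at 6 h (-0.05 to 0.14) and 24 h (-0.03 to 0.14) and cyclosporin A at 24 h (-0.05 to 0.12), and of Hif3a between the 24 h and 6 h controls (-0.50 to 0.10). The cause was not tested.

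The replicate numbers were not taken to pair the libraries: deviations of same-numbered libraries correlated at -0.10 to 0.30, and in 0 of 10 comparisons did every pair exceed 0.1. Each library was compared with the 3 libraries of the other group. It correlated best with its own number in 41 of 60 pairs, and in 6 of 6 for normoxia against the 6 h controls. This is more often than arbitrary numbers would give, over comparisons that share libraries. It is a hint of pairing from the data and not from the design, and the main fits do not use it. With the number as a replicate block the interactions were 3 for normoxia-hyperoxia against normoxia and 1 for normoxia against the 6 h controls, Ndrg1 passed for normoxia-hyperoxia against normoxia (-0.20, adjusted p 0.0299) and Egln3 lost the threshold for normoxia-hyperoxia against the 6 h controls (-0.39, adjusted p 0.0723). Depth limits Hif3a, with 1 to 30 counts a library.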
